A study of Mus musculus with 6 samples.

Results

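The triad is the junction at which skeletal muscle turns an action potential into calcium release, and the genes described here encode its core proteins. They were chosen by name from the TPM tables (a read abundance per unit of gene length, scaled so that each library has the same total): the dihydropyridine receptor subunits Cacna1s, Cacng1, Cacnb1 and Cacna2d1, the adaptor Stac3, the ryanodine receptors Ryr1 and Ryr3, and the junctional proteins Jph1, Jph2 and Trdn. All 10 were found among the 43074 genes listed. RNA came from soleus, a calf muscle that works in posture and holds both slow and fast fibres, in 3 libraries labelled StarD7 mKO and 3 labelled wild type (WT), which the series' design text calls control and describes as 3 mice per group. StarD7 is a lipid transfer protein that carries phosphatidylcholine, and mKO is the labels' name for the knockout. The driver of the knockout, the deleted exons, the strain, and the age and sex of the mice are not given in the sources used here. The labels name no animal for a library, so the p-values reflect the spread between these samples, part of which may be technical. In bulk RNA, fewer fibres of a type and less RNA per fibre cannot be told apart.

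As background, a depolarisation of the T-tubule moves the voltage sensor of the dihydropyridine receptor, which opens the ryanodine receptor of the facing sarcoplasmic reticulum through a mechanical link. Cacna1s is the pore-forming voltage sensor, Cacnb1 brings it to the junction, Cacna2d1 and Cacng1 are accessory subunits, and Stac3 is an adaptor needed for the link. Ryr1 is the release channel. The junctophilins Jph1 and Jph2 hold the membranes of the junction together, and triadin (Trdn) anchors calsequestrin, the calcium store protein, to the release channel. Fast fibres are known to hold more triad membrane than slow ones.

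Stard7, the targeted gene, stood at 21.8, 21.3 and 34.6 TPM in the mKO libraries, against 87.5, 95.4 and 94.99 TPM in the WT libraries, so the labels and the targeted gene go together. Whole reads could be worked out from TPM and gene length for 21171 genes, and over these genes came to between 42928774 and 51287999 per library. The share of TPM in mitochondrially encoded genes was 48.0% ± 1.05 in mKO and 43.6% ± 1.49 in WT (SD, n = 3 each). Because the TPM sum is fixed, a larger mitochondrial share lowers the value of the other genes, so each change of a member below is also given with these genes left out. Values of genes that are no members are from TPM as deposited. That rescaling moved the median log2 fold change of all tested genes to 0.09, against −0.01 with TPM as deposited.

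Promoter windows, from 250 bases before the annotated start to 50 bases after it, were found in RefSeq (build GRCm38.p6) for 5 of the 10 members. Those of the release channel, its voltage sensor and a junctophilin are printed because the sensor and the channel work as a pair and all 3 genes had lower values in each mKO library. The coordinates are of GRCm38.p6, whereas the TPM tables were made on GRCm39. Capitals mark the E-box, the letters CANNTG, which read the same on both strands and are bound by the myogenic bHLH factors.
Ryr1 (chr7:29125102-29125401, minus strand): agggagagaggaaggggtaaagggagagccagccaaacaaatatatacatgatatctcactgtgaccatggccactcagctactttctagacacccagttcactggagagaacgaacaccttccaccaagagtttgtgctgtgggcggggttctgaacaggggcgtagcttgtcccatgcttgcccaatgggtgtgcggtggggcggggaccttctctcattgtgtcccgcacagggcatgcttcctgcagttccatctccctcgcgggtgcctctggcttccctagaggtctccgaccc
Cacna1s (chr1:136052561-136052860, plus strand): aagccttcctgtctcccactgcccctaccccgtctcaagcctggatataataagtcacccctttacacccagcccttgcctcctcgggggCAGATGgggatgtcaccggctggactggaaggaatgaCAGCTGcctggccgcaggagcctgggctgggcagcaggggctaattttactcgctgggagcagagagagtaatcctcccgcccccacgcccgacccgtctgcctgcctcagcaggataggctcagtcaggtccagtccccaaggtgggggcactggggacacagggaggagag
Jph2 (the first of its windows in the table, chr2:163397944-163398243, minus strand): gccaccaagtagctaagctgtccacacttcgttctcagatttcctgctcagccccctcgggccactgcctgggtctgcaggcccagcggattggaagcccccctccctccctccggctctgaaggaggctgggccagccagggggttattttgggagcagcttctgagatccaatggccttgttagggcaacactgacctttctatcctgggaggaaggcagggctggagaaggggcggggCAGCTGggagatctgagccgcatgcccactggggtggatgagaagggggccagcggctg
The Cacna1s window held 2 E-boxes and the Jph2 window 1, and each of these windows held 1 of the form CAGCTG, which is one case of CANNTG. The Ryr1 window held 0. Of 32851 promoter windows of the same length, 72.3% held at least 1 E-box, 39.6% at least 2 and 16.3% the form CAGCTG. The MEF2 motif was searched on both strands, had 0 matches in these windows and was found in 3.19% of all windows.

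Of the 9 members that reached 1 TPM in at least 3 libraries, 2 fell in mKO, Cacng1 and Ryr1, and 0 rose. The test was limma-trend on log2(TPM + 1) over 12301 genes, with Benjamini-Hochberg adjustment and a threshold of 0.05. Over all genes tested, calls made up 0.52%, lower calls 0.423% and higher calls 0.0976%. The log2 fold change, mKO minus WT, was below 0 for all 9, with a median of −0.25, beside a median of −0.01 over all tested genes. Of the 12301 genes tested, 6782 were below 0. In 6 of the 9, the 3 mKO libraries lay below the 3 WT libraries with no overlap, which held for 10.3% of all genes tested. With mitochondrially encoded genes left out, 0 of the 9 were called (0.304% of all genes were), 8 of the 9 stayed below 0, and their median was −0.13 beside 0.09 over all genes.

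**Figure D1:**
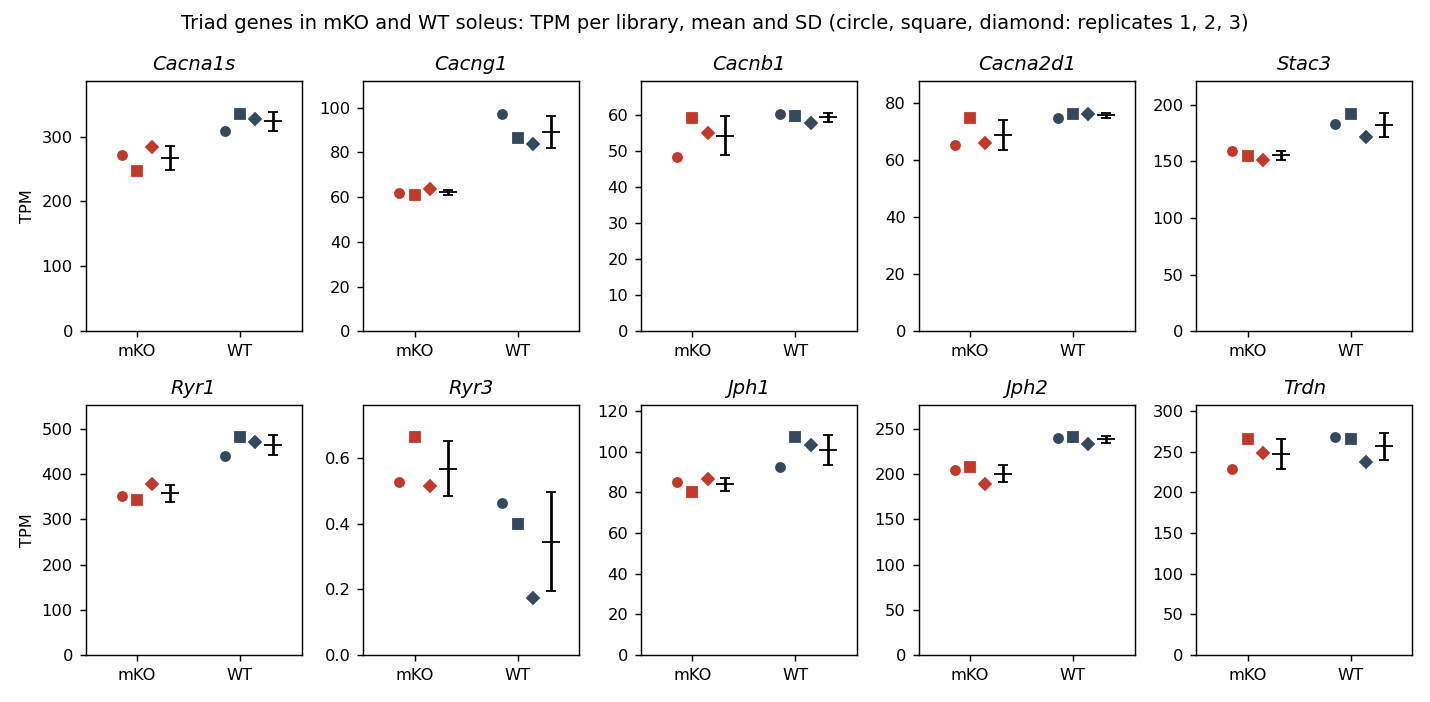
TPM of the 10 triad genes in each library, mKO left and WT right in each panel. Circles, squares and diamonds are replicates 1, 2 and 3, and the bar is the mean with its SD (n = 3). Cacna1s, Cacng1, Stac3, Ryr1, Jph1 and Jph2 are lower in each mKO library than in any WT library, while Cacnb1, Cacna2d1 and Trdn overlap and Ryr3 lies below 1 TPM.

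Among the dihydropyridine receptor subunits, Cacng1 had the largest difference. It stood at 61.8, 61.1 and 63.4 TPM in mKO replicates 1, 2 and 3, against 97.3, 86.3 and 83.5 TPM in WT replicates 1, 2 and 3. The mKO libraries lay close together and below each WT library, and the highest value was in WT replicate 1. The mean was 62.1 ± 1.16 TPM in mKO and 89.1 ± 7.29 TPM in WT (SD, n = 3 each), so mKO was at 69.8% of WT. The log2 fold change was −0.51 (SE 0.07, 95% interval −0.66 to −0.36, limma adjusted p = 0.0245). With mitochondrially encoded genes left out it was −0.40 (95% interval −0.55 to −0.25) and the call was lost (limma adjusted p = 0.0679). The call was also lost without any one of mKO replicates 1 and 2 and WT replicates 1, 2 and 3 (limma adjusted p between 0.0569 and 0.161), while the log2 fold change stayed between −0.55 and −0.44. Calls fell over all genes as well in these runs, to between 0.0329% and 0.214%, against 0.52% with all libraries.

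Cacna1s, the voltage sensor itself, stood at 271, 248 and 284 TPM in the mKO libraries, against 308, 335 and 327 TPM in the WT libraries. The groups did not overlap, but the gap between the highest mKO library and the lowest WT library was smaller than the range within either group. The mean was 268 ± 18.5 TPM in mKO and 323 ± 13.98 TPM in WT, or 82.8% of WT. Its log2 fold change of −0.27 (SE 0.06, 95% interval −0.42 to −0.13) did not pass the test (limma adjusted p = 0.158). With mitochondrially encoded genes left out the groups overlapped, and mKO was at 89.9% of WT.

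Cacnb1, the beta subunit, had 48.5, 59.2 and 55.1 TPM in the mKO libraries and 60.4, 59.9 and 57.9 TPM in the WT libraries. The groups overlapped through mKO replicate 2, and the log2 fold change of −0.13 (95% interval −0.31 to 0.04) did not pass (limma adjusted p = 0.601). Cacna2d1, the alpha2-delta subunit, had 65.3, 74.8 and 65.9 TPM in mKO and 74.7, 76.2 and 76.1 TPM in WT. It too overlapped through mKO replicate 2, which lay just above WT replicate 1, and its log2 fold change was −0.14 (95% interval −0.29 to 0.00465, limma adjusted p = 0.479). Without mitochondrially encoded genes, mKO stood at 99.1% of WT for Cacnb1 and at 98.4% for Cacna2d1.

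Stac3, the adaptor between the channel complexes, stood at 159, 155 and 151 TPM in mKO and at 183, 192 and 171 TPM in WT. Each mKO library was below each WT library. The mean was 155 ± 3.997 TPM in mKO and 182 ± 10.5 TPM in WT, and the log2 fold change of −0.23 (SE 0.06, 95% interval −0.36 to −0.10) did not pass the test (limma adjusted p = 0.178). With mitochondrially encoded genes left out mKO was at 92.6% of WT, and the highest mKO library reached the lowest WT library.

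Ryr1, the release channel, had the highest TPM of the 10 in both groups and ranked 170 among the 12301 tested genes by its WT mean. It stood at 351, 343 and 379 TPM in mKO replicates 1, 2 and 3, against 440, 481 and 472 TPM in WT replicates 1, 2 and 3. The highest mKO library was below the lowest WT library. The mean was 358 ± 18.8 TPM in mKO and 464 ± 21.8 TPM in WT (SD, n = 3 each), or 77.0% of WT. Between 156926 and 165454 reads lay behind the mKO values and between 220021 and 224628 behind the WT values. The log2 fold change was −0.38 (SE 0.06, 95% interval −0.51 to −0.24) with a limma adjusted p of 0.0478, just under the threshold. The call was lost in 11 of 15 other settings, among them a filter at a mean of 1 TPM (limma adjusted p = 0.0506), mitochondrially encoded genes left out (−0.26, limma adjusted p = 0.136) and any one library other than mKO replicate 3 left out (limma adjusted p between 0.0795 and 0.26). In these 15 settings the log2 fold change lay between −0.42 and −0.26. In the 11 that lost the call, 0.024% to 0.417% of all genes were called, against 0.52% in the main test.

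Ryr3, the paralogue known from developing muscle, was present at a trace. It stood at 0.527, 0.663 and 0.514 TPM in the mKO libraries, against 0.463, 0.400 and 0.174 TPM in the WT libraries. Each mKO library was above each WT library, a pattern that 5.67% of the tested genes showed, and Ryr3 itself was below the filter. Behind these values lay 205, 274 and 195 reads in mKO and 203, 159 and 72 reads in WT, and WT replicate 3 was the lowest. The mean was 0.568 ± 0.0827 TPM in mKO and 0.346 ± 0.152 TPM in WT. With mitochondrially encoded genes left out, mKO was at 179% of WT. With no filter on low values its log2 fold change was 0.23 (95% interval −0.01 to 0.46, limma adjusted p = 0.666). Exons of Ryr3 overlap exons of Aven on the opposite strand by 916 bases in GENCODE M21. Aven stood at 4.64, 5.17 and 4.08 TPM in mKO and at 4.60, 4.86 and 4.43 TPM in WT. The sources used here do not give whether reads were counted by strand, and the part of Aven reads in the Ryr3 values was not tested.

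Of the junctional proteins, Jph2 and Jph1 had lower values in each mKO library and Trdn did not. Jph2 stood at 205, 208 and 190 TPM in mKO and at 241, 241 and 234 TPM in WT. Its log2 fold change was −0.25 (SE 0.05, 95% interval −0.37 to −0.13), and it did not pass (limma adjusted p = 0.116). Among the uncalled members this was the smallest adjusted p. Jph1 stood at 84.9, 80.3 and 86.5 TPM in mKO and at 92.7, 107 and 103 TPM in WT, with a log2 fold change of −0.26 (SE 0.07, 95% interval −0.41 to −0.11, limma adjusted p = 0.182). With mitochondrially encoded genes left out, Jph1 overlapped between the groups and Jph2 did not, at 90.3% and 91.4% of WT.

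With TPM as deposited, Trdn had the smallest difference of the tested members. It stood at 229, 265 and 248 TPM in mKO, against 268, 266 and 238 TPM in WT, and the groups overlapped over most of their range. The mean was 247 ± 18.5 TPM in mKO and 257 ± 16.7 TPM in WT. The log2 fold change was −0.06 (95% interval −0.22 to 0.11, limma adjusted p = 0.849), and it turned to 0.06 with mitochondrially encoded genes left out, where Cacnb1 and Cacna2d1, at −0.02 each, lay closer to 0.

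**Figure D2:**
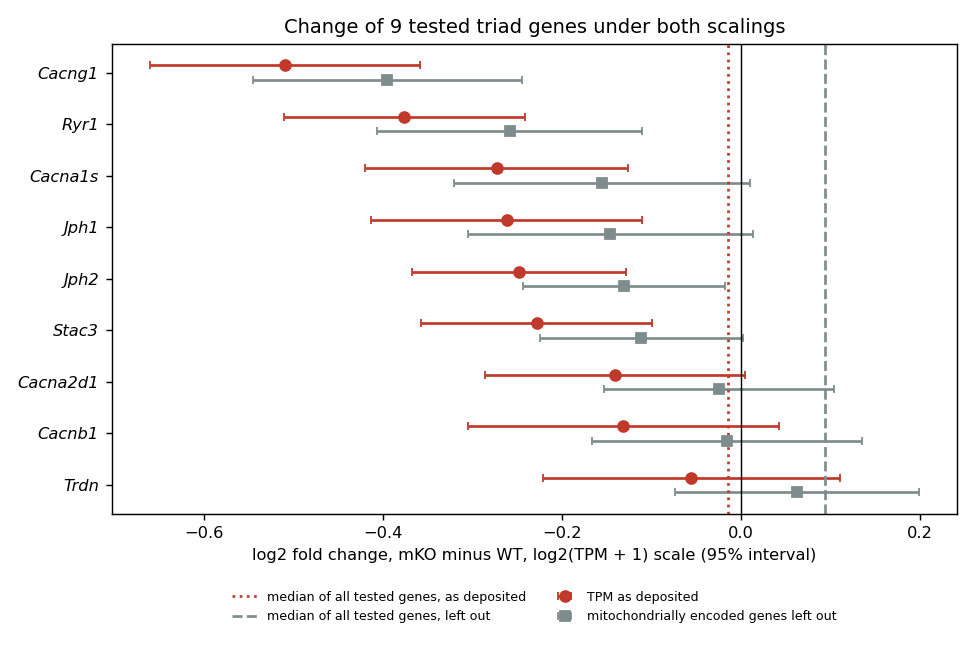
Log2 fold change, mKO minus WT, of the 9 tested triad genes on the log2(TPM + 1) scale, with 95% intervals from limma. Red circles use TPM as deposited and grey squares leave out mitochondrially encoded genes, and the vertical lines give the median of all tested genes, −0.01 and 0.09. Cacng1 at −0.51 and Ryr1 at −0.38 are farthest from 0 under the first scaling, and Trdn crosses 0 under the second.

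Ratios of members within a library do not depend on how TPM is scaled. For 8 ratios the groups were set against each other by an exact permutation test, two-sided, in which 0.1 is the smallest p that 3 against 3 libraries can give, so none could pass a threshold of 0.05. Ryr1 stood at 1.29, 1.39 and 1.33 times Cacna1s in the mKO libraries, against 1.43, 1.44 and 1.44 times in the WT libraries. The WT values lay almost on one another, and each mKO value was lower (difference in log2 ratio −0.10, exact permutation p = 0.1, 0.2 adjusted over the 8 ratios). Cacng1 stood at 0.228, 0.247 and 0.223 times Cacna1s in mKO, against 0.316, 0.257 and 0.256 times in WT, where replicate 1 was apart from the other WT libraries (difference −0.24, exact permutation p = 0.1, adjusted p = 0.2). Without WT replicate 1 this difference was −0.14.

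Trdn stood at 0.651, 0.774 and 0.656 times Ryr1 in mKO, against 0.609, 0.552 and 0.504 times in WT. The ratio was higher in each mKO library (difference in log2 ratio 0.32, exact permutation p = 0.1, adjusted p = 0.2). The ratio of Ryr3 to Ryr1 was 0.0015, 0.00193 and 0.00136 in mKO and 0.00105, 0.00083 and 0.00037 in WT (difference 1.20, exact permutation p = 0.1, adjusted p = 0.2). This difference was 0.756 without WT replicate 3 and 0.602 as a ratio of TPM + 1. Ryr3 was thus a trace beside Ryr1 in both groups.

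The ratios to Cacna1s of Cacnb1 (difference in log2 ratio 0.14), Cacna2d1 (0.13) and Stac3 (0.04) overlapped between the groups, with exact permutation p-values of 0.5, 0.5 and 0.6. In the first of these ratios mKO replicate 2, at 0.239, was above the other mKO libraries, at 0.179 and 0.194, and above the WT libraries, which ran from 0.177 to 0.196. Without mKO replicate 2 the differences for Cacnb1 and Cacna2d1 were 0.02 and 0.01. The ratio of Jph1 to Jph2 was 0.415, 0.385 and 0.456 in mKO and 0.385, 0.444 and 0.440 in WT (difference −0.02, exact permutation p = 1.0). The differences for Stac3 over Cacna1s and for Jph1 over Jph2 changed sign when single libraries were left out.

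**Figure D3:**
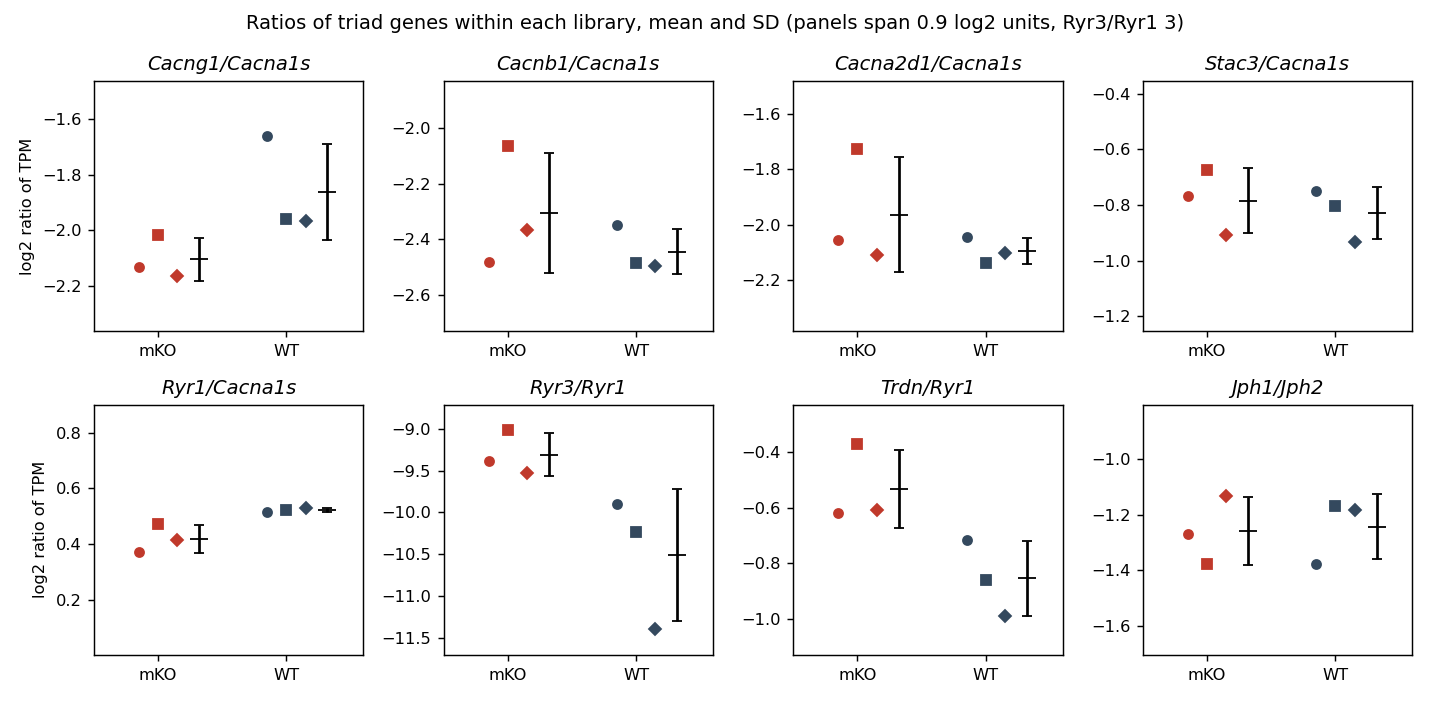
Log2 ratio of TPM of 8 pairs of triad genes in each library, mKO left and WT right, with the mean and SD (n = 3). Circles, squares and diamonds are replicates 1, 2 and 3, and each panel spans the same range except that of Ryr3 over Ryr1. Ryr1 over Cacna1s and Cacng1 over Cacna1s are lower in each mKO library, and Trdn over Ryr1 and Ryr3 over Ryr1 are higher.

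Levels in TPM are per gene length, so their order across genes also depends on the length used. With all annotated exons of GENCODE M21 counted, this was 1249 bases for Cacng1 and 12416 for Cacna2d1. Which of these exons are used in this muscle was not tested, so the order is one of TPM values. In both groups Ryr1 came first and Cacna1s second, followed by Trdn, Jph2, Stac3 and Jph1, with Cacnb1 and Ryr3 last. Trdn and Cacna1s overlapped in the mKO libraries, whereas Trdn and Jph2, and Jph1 and Cacng1, overlapped in the WT libraries. Cacng1 and Cacna2d1 changed places: in mKO Cacng1 ran from 61.1 to 63.4 TPM, below Cacna2d1 from 65.3 to 74.8 TPM, and in WT Cacng1 ran from 83.5 to 97.3 TPM, above Cacna2d1 from 74.7 to 76.2 TPM. This pair was singled out after its values were seen, and no test is given for it.

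The members were also compared by their profiles over the 6 libraries. Centred on its own mean over the 6 libraries, the log2(TPM + 1) profile of Cacna1s was closest to that of Jph1 (root mean square difference 0.0372), and that of Stac3 closest to that of Jph2 (0.0474). Cacnb1 was closest to Cacna2d1 (0.0547) and Trdn closest to Cacnb1 (0.0569), and these 3 genes were highest in mKO replicate 2 among the mKO libraries. Cacng1 and Trdn were farthest apart (0.242). Each distance holds the difference between the groups as well as the spread within them, so it partly restates the log2 fold changes above. For Cacng1 and Trdn these were −0.51 and −0.06. The distances cover 6 libraries that share depth and scaling and are a description without a test.

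Like profiles were also sought over all tested genes, with predicted genes and those with Rik names left out. Genes were picked by likeness to a called member in these same libraries, so their changes and calls largely follow from that choice. The profiles most like that of Ryr1 were those of Pgp, Phkb and Rftn1, with root mean square differences of 0.0263 to 0.0284. Pgp and Rftn1 were not called (limma adjusted p = 0.0821 and 0.0834). Phkb, the beta subunit of phosphorylase kinase, stood at 29.1, 28.9 and 31.9 TPM in mKO and at 39.1, 40.9 and 40.0 TPM in WT, and was itself called (log2 fold change −0.41, limma adjusted p = 0.0395). The profiles most like that of Cacng1 were those of Cers1, a ceramide synthase, Sema4d, a semaphorin, and Gadl1, with differences of 0.0259 to 0.0524. Gadl1 had a mean of 1.13 TPM in mKO and 2.18 TPM in WT. Because log2(TPM + 1) understates changes of low genes, the likeness of Cers1 and Gadl1 to Cacng1 depends on that scale. Cers1 stood at 1.85, 1.77 and 1.92 TPM in mKO and at 3.26, 2.95 and 2.86 TPM in WT (limma adjusted p = 0.0622) and was not called, while Sema4d and Gadl1 were (limma adjusted p = 0.047 and 0.0494). Cers1, Sema4d and Gadl1 were, like Cacng1, highest in WT replicate 1, which follows in part from the choice by likeness.

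Of 15 partners at the junction and in the sarcoplasmic reticulum, 0 were called by limma, and the median log2 fold change was −0.11. Below 0 were 12 of the 15, beside 6782 of the 12301 genes tested. In 6 of the 15 the mKO libraries lay below the WT libraries without overlap and in 1 above, which over all genes tested held for 10.3% and 5.67%. The calsequestrins differed in sign. Casq1, the isoform with the higher TPM in both groups, stood at 910 ± 55.8 TPM in mKO and 1168 ± 61.0 TPM in WT (log2 fold change −0.36, SE 0.06, limma adjusted p = 0.0623). Casq2, the isoform shared by slow fibres and heart, stood at 288 ± 55.0 TPM in mKO and 220 ± 25.9 TPM in WT (0.37, SE 0.14, limma adjusted p = 0.397), with overlap. Neither passed the test.

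Of 11 genes of the T-tubule membrane and its excitation, 0 were called and the median was −0.07. Below 0 were 8 of the 11, beside 6782 of the 12301 genes tested. Scn4a, the sodium channel that carries the action potential, stood at 102 ± 5.15 TPM in mKO and 122 ± 8.50 TPM in WT (log2 fold change −0.26, limma adjusted p = 0.199). Dysf, the membrane repair protein dysferlin, stood at 18.0 ± 1.47 TPM in mKO and 21.7 ± 0.159 TPM in WT (−0.26, limma adjusted p = 0.219). Neither passed, and in both the groups did not overlap. The mKO libraries lay below the WT libraries without overlap in 4 of the 11 and above in 0, beside 10.3% and 5.67% of all genes tested.

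Paralogues of the members were mostly close to 0 in this muscle: 4 of 15 passed the filter, and 0 of these were called. Cacng6, another gamma subunit of muscle calcium channels, was the one at the level of the members. It stood at 61.5 ± 6.49 TPM in mKO and 77.1 ± 3.50 TPM in WT (log2 fold change −0.32, SE 0.08, limma adjusted p = 0.18), without overlap. Cacng7 stood at 3.94 ± 0.387 TPM in mKO and 4.40 ± 0.776 TPM in WT (−0.12, limma adjusted p = 0.801). The cardiac release channel Ryr2 was at 0.0557 ± 0.0159 TPM in mKO and 0.0379 ± 0.0130 TPM in WT, and the cardiac voltage sensor Cacna1c at 0.927 ± 0.0969 TPM in mKO and 0.887 ± 0.0283 TPM in WT. These cardiac genes were named after their values were seen, and neither passed the filter.

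**Figure D4:**
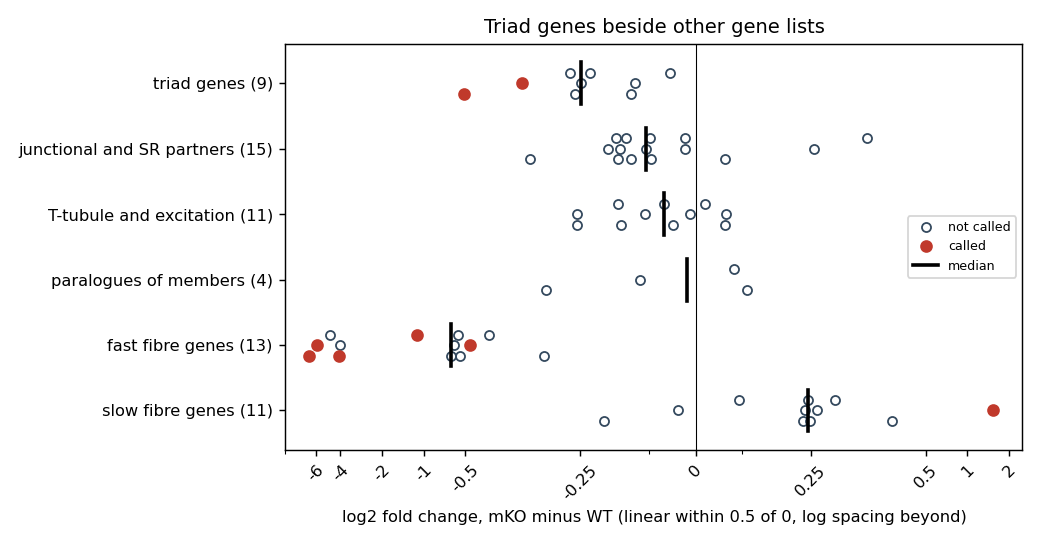
Log2 fold change, mKO minus WT, of each tested gene in 6 lists, 1 point per gene, with the list's median as a bar and called genes filled. The axis is linear within 0.5 of 0 and logarithmic beyond. The medians are −0.25 for the triad genes, −0.11 for junctional and sarcoplasmic reticulum (SR) partners and −0.07 for the T-tubule and excitation list, beside −0.64 for fast fibre genes and 0.24 for slow fibre genes.

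Markers of fibre type are given beside these values. Of 13 fast fibre genes, 13 were below 0 and 5 fell, with a median of −0.64, and their summed level was 31168 to 40336 TPM in the mKO libraries, against 49502 to 57896 TPM in the WT libraries. The calls included Mybpc2 at −6.73, Actn3 at −4.08, Pvalb at −5.87 and Myoz1 at −1.12 (limma adjusted p between 8.37e-06 and 0.0253). Of 11 slow fibre genes, Pln rose (1.52, limma adjusted p = 0.000742) and 0 fell, with a median of 0.24. Below 0 were 2 of the 11, and 1 of these was lower in mKO without overlap. The sum of the slow fibre genes was 21638 to 29842 TPM in mKO and 20476 to 25848 TPM in WT. Among the mKO libraries, replicate 3 had the highest fast sum (40336 TPM, against 31922 and 31168 in replicates 1 and 2) and the lowest slow sum (21638 TPM, against 28631 and 29842). It also had the highest Stard7 and the highest Myh1, the fast type IIx myosin heavy chain, at 635 TPM against 113 and 82.7, a gene singled out here after its values were seen. Of the fast fibre genes, Actn3 and Myh4 went the other way. Among the mKO libraries both were lowest in replicate 3, at 12.9 and 8.32 TPM, while the rest of the list was highest there. Replicate 3 was also the mKO library with the highest Cacng1 and Ryr1, at 63.4 and 379 TPM, and with the highest Cacna1s and Jph1. For Cacng1 the other mKO libraries were close, at 61.8 and 61.1 TPM. The remaining members went otherwise: Cacnb1, Cacna2d1 and Trdn were highest in mKO replicate 2, and Stac3, Jph2 and Ryr3 were lowest in mKO replicate 3. Without mKO replicate 3 the calls of Cacng1 and Ryr1 held (log2 fold changes −0.52 and −0.42, limma adjusted p = 0.0338 and 0.0315). In that run 0.771% of all genes were called, against 0.52% with all libraries. Leaving out the highest mKO value can only enlarge these differences, so that run is no test of fibre type. The part of fibre type composition in the values of Cacng1 and Ryr1 was not tested. Lists of 5 markers each for smooth muscle, fibroblasts, macrophages, Schwann cells, adipocytes and satellite cells held 0 called genes, and their summed levels overlapped between the groups. The endothelial list also held 0 called genes, and its sum was 187 to 189 TPM in mKO, against 193 to 199 TPM in WT.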

How the data were processed

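Soleus RNA of 3 mKO and 3 WT libraries was measured by poly(A) RNA-seq with a directional kit, per the labels' protocols. For each library the authors deposited a table of TPM, made on GRCm39 (per the submitters' processing notes). Aligner, annotation and use of strand are not given in the sources used here, and reads of overlapping or antisense genes may be shared. In GENCODE M21, exons of Ryr1, Cacna1s, Cacnb1 and Jph1 overlap predicted genes on the other strand, each of which was below 1 TPM in each library where listed. Titles in the labels gave the groups and replicate numbers.

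For genes reaching 1 TPM in 3 or more libraries, log2(TPM + 1) was fitted on genotype alone by limma-trend, with limma 3.58.1 in R 4.3.3. P-values were adjusted by Benjamini-Hochberg over these 12301 genes, and the log2 scale understates changes of low genes. The members and gene lists were chosen with earlier results of these data known. Besides the members, the text names Stard7, called list genes or else the 2 with the largest change (up to 4 for fibre types), and the 3 profiles nearest to each called member. Predicted genes and those with Rik names were left out of the search for near profiles. TPM times exon length (GENCODE M21) came out whole in each library, to within 0.05 of a read, for 93.12% of 22734 genes. Of these values 58.55% were even, so a read pair may count as 2 reads in part. Chi-square values between replicates of a group, 19.61 to 37.55 per degree of freedom, were above sampling noise. The test was tested on simulated data. Ratios were tested with SciPy 1.17.1. Alternatives were other pseudocounts, filters and scalings, a replicate block, limma-voom on recovered reads and each library left out.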

Additional observations from a re-analysis of the deposited data

How the results depend on the processing

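The 9 tested members kept the sign of their log2 fold change in all 15 other settings, except Trdn, which was at 0.0623 with mitochondrially encoded genes left out and at 0.000364 without mKO replicate 1. The calls of Ryr1 and Cacng1 held with pseudocounts of 0.1 and 0.5, by limma-voom on recovered reads and without mKO replicate 3. The call of Cacng1 also held with a filter at a mean of 1 TPM and with scaling by median of ratios or upper quartile. Both were lost with no filter (Ryr1 −0.3762, Cacng1 −0.5097), with mitochondrially encoded genes left out (−0.2586 and −0.3955) and with a replicate block (−0.3762 and −0.5097, adjusted p = 0.0939 and 0.0676). Ryr1 alone was lost with the filter at a mean of 1 TPM (−0.3762), with scaling by upper quartile (−0.3733) or median of ratios (−0.3585). No uncalled member gained a call. The causes were not tested.

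With fewer samples, after each library in turn was left out, the test gave log2 fold changes of −0.4183 to −0.3471 for Ryr1, −0.5537 to −0.4448 for Cacng1 and −0.1102 to 0.000364 for Trdn. It gave 4 to 94 called genes, 1 to 18 higher and 3 to 76 lower (4 without WT replicate 2, 94 without mKO replicate 3), against 64, 12 and 52 with all libraries. The difference in log2 ratio lay between −0.0101 and 0.1067 for Stac3 over Cacna1s, changing sign without mKO replicate 2 (−0.0101) and WT replicate 3 (−0.00767). It lay between −0.0824 and 0.0428 for Jph1 over Jph2, changing sign without mKO replicate 2 (0.0428), WT replicate 2 (0.0208) and WT replicate 3 (0.0145). The other 6 ratios kept their sign.

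Called genes numbered 6 with no filter (2 higher, 4 lower), 41 with mitochondrially encoded genes left out (21 higher, 20 lower), 41 with median of ratios (30 lower), and 21 with the replicate block (5 higher, 16 lower). Limma-voom gave 35 higher. Deviations of same-numbered libraries correlated at 0.095, 0.0474 and 0.131, and each library correlated best with its own number, a hint from the data and not the design. The numbers were not taken as pairs. In ratios of TPM + 1 and in paired sign permutations every ratio kept its sign, and 3 pairs cannot go below an exact p of 0.25. Of the members Ryr3 had the fewest reads, 72 to 274 per library.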
